A study of Mus musculus with 9 samples.

Results

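The genes described here are the 10 integrin subunit genes Itga1, Itga3, Itga5, Itga6, Itga8, Itgav, Itgb1, Itgb3, Itgb4 and Itgb5, taken by name from the 46078 identifiers of the count files. They comprise 6 alpha and 4 beta subunits, and 17 further integrin subunit genes in the files serve for comparison. RNA-seq was performed on EGFP-SSCs, a single cell line of mouse spermatogonial stem cells (SSCs) with WT genotype that carries a green fluorescent reporter. The 0 h group was kept in normal culture on mitomycin C-exposed mouse embryonic fibroblasts with GDNF, basic fibroblast growth factor and epidermal growth factor. For the 24 h and 48 h groups, the same line was mixed 1:1 with testicular somatic cells from busulfan-exposed mice of 3 to 7 days postpartum, in α-MEM with KSR, BMP-4/7, retinoic acid, activin A, testosterone, FSH and BPE, and EGFP-positive cells were then sorted. The labels name no sort for the 0 h group. The paper states that flow cytometry was used to sort SSCs from different culture stages before RNA-seq, with GFP-negative embryonic fibroblasts as control. It does not separately name the group kept on feeder fibroblasts. How far feeder cells were removed from that group was not tested. Each group had 3 libraries that the labels call biological replicates, all from the same line, so that the p-values measure the spread between these libraries. Medium, partner cells and time changed together between 0 h and the later groups and cannot be told apart.

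Integrins are receptors of the cell surface made of an alpha and a beta chain, and they tie the extracellular matrix and other cells to the actin or keratin skeleton. The alpha chain largely sets the ligand: the α3 and α6 chains bind laminins, the α5, α8 and αv chains bind ligands with an RGD motif such as fibronectin, and the α1 chain binds collagens. In the testis, α6 and β1 are known surface markers used to enrich SSCs, and β1 is known to take part in the homing of these cells to the laminin-rich basement membrane of the tubule.

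The 10 genes lie on 6 chromosomes of GRCm38 in GENCODE release M21. Itga6 (chr2:71745616-71858416, plus strand), Itgav (chr2:83724397-83806916, plus) and Itga8 (chr2:12106632-12301922, minus) lie on chromosome 2, and Itga3 (chr11:95044474-95076801, minus), Itgb3 (chr11:104608000-104670476, plus) and Itgb4 (chr11:115974709-116008412, plus) on chromosome 11. Itgb1 lies at chr8:128685654-128733200 (plus), Itga1 at chr13:114953096-115101964 (minus), Itga5 at chr15:103344286-103366763 (minus) and Itgb5 at chr16:33829665-33949338 (plus). RefSeq start-site windows on GRCm38.p6 were matched for 7 of the 10 genes, those other than Itga6, Itgb3 and Itgb4. The sequence upstream of the annotated start is shown for 1 gene that fell over the course, 1 that was not called and 1 that rose, each 5′ to 3′ on the strand of the gene, with the GC box GGGCGG in capitals.
Itga3 (chr11:95076802-95076964, minus): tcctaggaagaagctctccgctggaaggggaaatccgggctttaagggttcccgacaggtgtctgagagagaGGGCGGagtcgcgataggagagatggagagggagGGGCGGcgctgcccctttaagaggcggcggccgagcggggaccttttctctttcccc
Itgb1 (chr8:128685404-128685653, plus): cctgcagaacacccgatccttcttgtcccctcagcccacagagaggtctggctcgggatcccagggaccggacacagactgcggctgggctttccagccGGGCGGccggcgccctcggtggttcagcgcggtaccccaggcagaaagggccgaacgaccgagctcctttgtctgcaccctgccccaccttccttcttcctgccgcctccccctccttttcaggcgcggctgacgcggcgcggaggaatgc
Itga8 (chr2:12301945-12302194, minus): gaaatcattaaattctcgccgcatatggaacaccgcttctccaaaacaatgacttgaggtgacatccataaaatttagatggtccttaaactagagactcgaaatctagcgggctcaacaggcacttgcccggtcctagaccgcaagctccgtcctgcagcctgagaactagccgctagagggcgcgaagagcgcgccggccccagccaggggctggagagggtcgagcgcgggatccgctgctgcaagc
The stretch upstream of Itga3 held 2 GC boxes in 163 bases, that of Itgb1 held 1 in 250 bases and that of Itga8 held 0. Both strands were searched, and every box in these stretches lay on the strand shown. Over all 32851 promoter windows of 300 bases, 35.7% held this box on either strand, so its presence is common. The windows of the members had a GC content of 52.3% to 67.3%, beside a median of 52.7% over all windows. None of the 8 member windows held TATAAA or TGACTCA, motifs found in 13.6% and 5.20% of all windows.

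Library totals ran from 16825251 to 22201892 counts, and all 10 genes passed the expression filter in the 3 comparisons. The summed level of 7 germ cell markers (Ddx4, Dazl and others) was 2167 to 3203 CPM at 0 h, where CPM is the count scaled to a common library size, 2752 to 2961 at 24 h and 2909 to 3175 at 48 h. The 9 markers of undifferentiated spermatogonia summed to 2065 to 2422 CPM at 0 h, 398 to 432 at 24 h and 302 to 338 at 48 h, and all 9 were called lower at 48 h. The 6 markers of differentiating spermatogonia (Stra8, Kit and others) summed to 399 to 450.0 CPM at 0 h, were highest at 24 h with 2034 to 2127 CPM, and had 1307 to 1365 CPM at 48 h. Against 0 h, 3 of the 6 were called higher and 3 were not called at each later time. From 24 to 48 h, 3 were called lower and 1 higher. Several lists of markers of other cell types were also higher in the later groups. The summed level of 12 fibroblast markers was 304 to 408 CPM at 0 h, 2274 to 2647 at 24 h and 3164 to 3511 at 48 h, and that of 7 peritubular myoid markers was 17.1 to 20.5, 161 to 230.3 and 284 to 350 CPM. Col1a1, Col1a2 and Col3a1, with means of 1404, 945 and 479 CPM at 48 h, made up most of the fibroblast sum. Of 12 fibroblast markers tested at 24 h, 9 were called higher and 1 lower. Of 11 tested at 48 h, 8 were higher and 1 lower. Twist1 had lower means later (15.5, 6.41 and 7.58 CPM at 0, 24 and 48 h). Of the myoid markers, 6 of 7 were called higher and 0 lower at both later times. Sertoli cell markers summed to 26.0 to 26.8 CPM at 0 h, 80.7 to 138 at 24 h and 123 to 136 at 48 h, with Fshr at 3 counts or fewer in every library. Calls among the 10 Sertoli genes tested went both ways. Against 0 h, 8 rose at each later time, while 2 fell at 24 h and 1 at 48 h. Sox9 averaged 11.7, 6.64 and 7.90 CPM at 0, 24 and 48 h, and Rhox5 2.23, 0.368 and 0.192 CPM. Amh peaked at 24 h (0.133, 5.80 and 0.829 CPM). Clu and Inha had the highest means at 48 h, 56.3 and 21.5 CPM, from 6.11 and 0.776 CPM at 0 h. Leydig cell markers summed to 4.59 to 7.00 CPM at 0 h, 28.7 to 44.8 at 24 h and 29.1 to 37.3 at 48 h, with Lhcgr at 3 counts or fewer in every library. Endothelial markers summed to 91.7 to 104 CPM at 0 h, at most 45.0 at 24 h and 31.7 to 35.1 at 48 h, with 4 of 7 tested called lower and 2 higher at both later times. The 10 macrophage markers summed to 17.1 to 21.3, 6.26 to 10.3 and 5.61 to 7.75 CPM. Most of that sum came from Cd68 (15.1 to 16.4 CPM at 0 h), 6 of the 10 were at 3 counts or fewer in every 0 h library, and C1qa, C1qc, Tyrobp and Cx3cr1 were so in every library. Of 3 macrophage markers tested at 24 h, 2 were called lower, and Csf1r was called higher (0.295 and 1.08 CPM on average at 0 and 24 h). Of 3 tested at 48 h, 2 were called lower and 0 higher. Mrc1 averaged 2.98, 0.0993 and 0.0820 CPM at 0, 24 and 48 h. The part of other cells in the integrin values was not tested, and in these bulk libraries fewer cells of a type and less RNA per cell cannot be told apart.

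Levels between genes were compared as FPKM, which divides TMM-normalized counts by the union of exons. At 0 h, Itgb1, the common partner of most alpha chains, had the highest level of the 10 genes (74.1 ± 9.24 FPKM, SD, n = 3). Itga3 (22.3 ± 3.08), Itga6 (20.4 ± 3.44) and Itgb5 (19.9 ± 3.30) followed and overlapped between libraries. Itga5 had 9.66 ± 1.23 FPKM, Itgb3 4.91 ± 0.151, Itgav 3.37 ± 1.24 and Itgb4 1.32 ± 0.157, without overlap between neighbours in this order. Itga1 and Itga8 were near the bottom, with 0.226 ± 0.0716 and 0.0462 ± 0.0239 FPKM. The place of Itga6 depends on the length used, because its union of exons spans 9025 bases and its longest transcript 4310. With the longest transcript, Itga6 stood at 42.6 ± 7.21 FPKM at 0 h, above Itga3 at 26.2 ± 3.61, and Itgav (5.13 ± 1.88) stood level with Itgb3 (5.01 ± 0.154).

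At 48 h the order had changed behind Itgb1. Itgb1 stood at 76.9 ± 2.97 FPKM and Itgb5 at 16.2 ± 0.840, while Itga3 (7.96 ± 0.461) and Itga5 (7.58 ± 0.487) overlapped. Itga6 had 6.44 ± 0.307 FPKM and Itgav 4.79 ± 0.233. Itgav thereby stood above Itgb3 (3.89 ± 0.205), which it had been below at 0 h, and Itga8 (0.273 ± 0.0644) overlapped with Itga1 (0.230 ± 0.0460). With the longest transcript, Itga6 (13.5 ± 0.643 FPKM) again stood above Itga3 (9.36 ± 0.541). At 24 h, Itgb5 (15.5 ± 1.56) already preceded Itga3 (12.1 ± 0.392), and the pairs Itga5 and Itga6 (10.5 ± 0.959 and 9.29 ± 0.434) and Itgav and Itgb3 (3.78 ± 0.362 and 3.30 ± 0.191) overlapped.

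**Figure D1:**
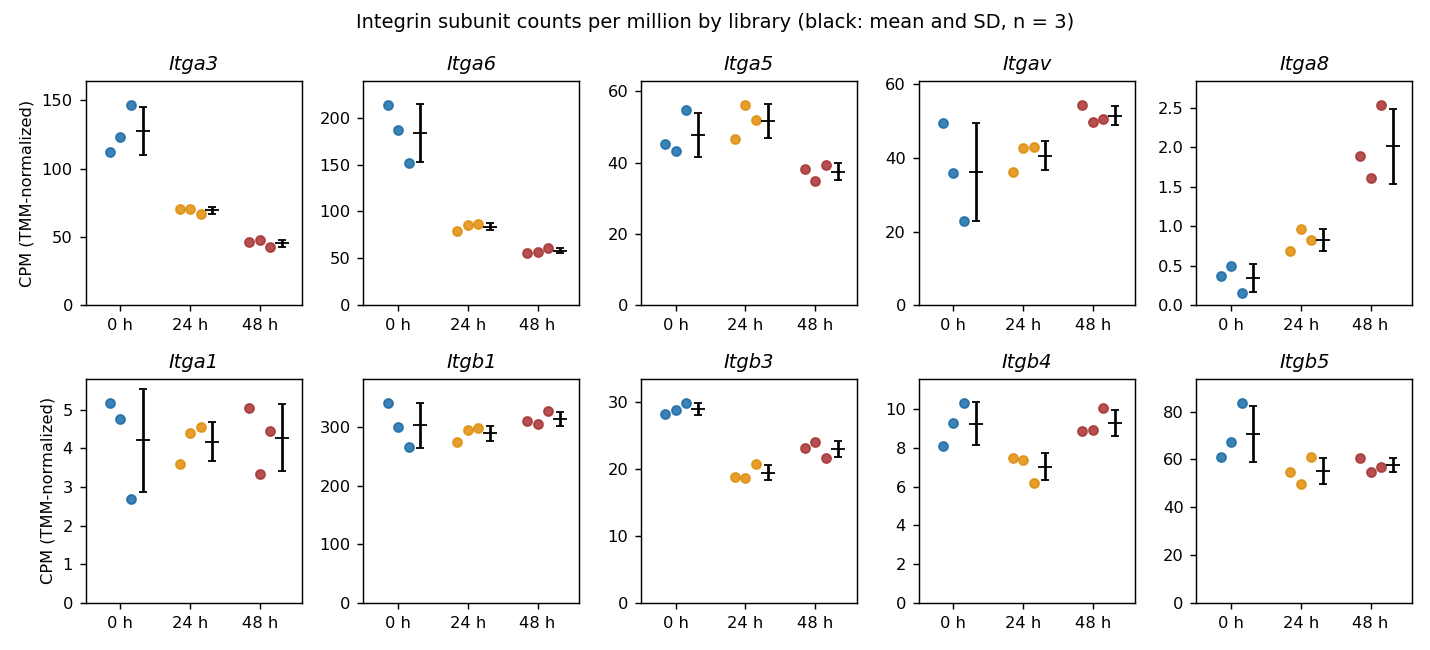
TMM-normalized CPM of the 10 integrin subunit genes in each library (coloured points) at 0, 24 and 48 h, with the mean and SD of 3 libraries in black and each axis starting at 0. Itga3 and Itga6 stepped down at each time without overlap between groups, Itga8 stepped up, and Itgb1 stayed between 266 and 341 CPM.

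Of the laminin-binding chains, both fell at each step. Itga6 had 213, 186 and 151 CPM in the 3 libraries at 0 h, 79.3, 86.0 and 86.3 CPM at 24 h and 56.1, 57.0 and 61.3 CPM at 48 h. No library of one time overlapped with another, and most of the decline had taken place by 24 h. The log2 fold change was −1.12 ± 0.143 (SE) at 24 h against 0 h, a 2.17-fold lower level (edgeR quasi-likelihood test, adjusted p = 0.00136). It was −1.66 ± 0.147 at 48 h against 0 h (edgeR, adjusted p = 0.000214) and −0.54 ± 0.0705 between 24 and 48 h (edgeR, adjusted p = 0.00129). Itga3 encodes the chain that pairs with β1 to bind laminins with an α3 or α5 chain. It had 112, 123 and 147 CPM at 0 h, 70.6, 70.8 and 66.8 CPM at 24 h and 46.1, 47.8 and 42.6 CPM at 48 h. Its libraries did not overlap between times either. Its log2 fold change was −0.86 ± 0.126 at 24 h (edgeR, adjusted p = 0.00243), −1.49 ± 0.132 at 48 h (edgeR, adjusted p = 0.000219) and −0.62 ± 0.0726 from 24 to 48 h (edgeR, adjusted p = 0.000763). These 6 calls held in every alternative fit, with each library left out in turn and with offsets for GC content and length.

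The RGD-binding chains moved differently from each other. Itga5, the classical fibronectin receptor chain, had 45.1, 43.3 and 54.6 CPM at 0 h, 46.7, 56.1 and 52.0 CPM at 24 h and 38.1, 34.7 and 39.4 CPM at 48 h. The 0 h and 24 h libraries overlapped (log2 fold change 0.13 ± 0.134, edgeR, adjusted p = 0.558), and those at 48 h were the lowest. Against 0 h, the 48 h value was −0.35 ± 0.128 (edgeR, adjusted p = 0.0761), and it passed with all 9 libraries in 1 fit (edgeR, adjusted p = 0.0430). Itga5 fell between 24 and 48 h by 0.47 ± 0.0896 on the log2 scale (edgeR, adjusted p = 0.00643), a call that was lost with GC and length offsets (log2 fold change −0.27, edgeR, adjusted p = 0.0808) and with all 9 libraries in 1 fit (edgeR, adjusted p = 0.0541).

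Itgav, whose product pairs with several beta chains, had 49.5, 36.0 and 23.0 CPM at 0 h, a wider spread than in the later groups. It had 36.1, 42.7 and 43.0 CPM at 24 h and 54.3, 49.6 and 50.5 CPM at 48 h, and the 48 h libraries lay above those of 24 h and of 0 h. The difference from 0 h to 48 h did not pass the test (log2 fold change 0.51 ± 0.257, edgeR, adjusted p = 0.179) and passed without 0 h replicate 1 (0.81, edgeR, adjusted p = 0.0143) and with GC and length offsets (0.31, edgeR, adjusted p = 0.0461). From 24 to 48 h it rose by 0.33 ± 0.0870 (edgeR, adjusted p = 0.0255), a call that was lost with GC and length offsets (0.16, edgeR, adjusted p = 0.198), with all 9 libraries in 1 fit (edgeR, adjusted p = 0.434), with the replicate block (edgeR, adjusted p = 0.0678) and without 24 h replicate 1, 48 h replicate 1 or 48 h replicate 3 (edgeR, adjusted p up to 0.0958).

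Itga8, which pairs with β1 and binds nephronectin, had the lowest CPM of the 10 genes in every library, while per length it lay below Itga1 at 0 and 24 h and overlapped with it at 48 h. Its log2 fold change was the highest of the 10 genes in each comparison. It had 6, 10 and 3 counts at 0 h (0.374, 0.496 and 0.150 CPM), 14, 18 and 17 counts at 24 h (0.688, 0.963 and 0.831 CPM) and 36, 37 and 50 counts at 48 h (1.89, 1.61 and 2.53 CPM). The 3 groups did not overlap. The log2 fold change at 24 h was 1.28 ± 0.473 (edgeR, adjusted p = 0.0899, and 0.0489 with all 9 libraries in 1 fit), at 48 h it was 2.54 ± 0.448 (edgeR, adjusted p = 0.00489), and from 24 to 48 h it was 1.26 ± 0.297 (edgeR, adjusted p = 0.0167). The last call was lost without 24 h replicate 1 or 48 h replicate 3 (edgeR, adjusted p up to 0.0693) and with all 9 libraries in 1 fit (edgeR, adjusted p = 0.0756). The rise ran beside that of the fibroblast and myoid marker sums given above, and their part in it was not tested. An antisense gene, E030013I19Rik, overlaps 5.05% of its exonic bases, and the library protocol names no step that marks strand, so that reads there cannot be assigned to one of the 2 genes.

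Itga1, the collagen-binding chain, remained low, with 5.18, 4.77 and 2.69 CPM at 0 h, 3.59, 4.39 and 4.54 CPM at 24 h and 5.03, 3.35 and 4.46 CPM at 48 h. The groups overlapped, and the log2 fold change at 48 h was 0.021 with a 95% interval from −0.68 to 0.72, which leaves room for a change of either sign.

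Among the beta subunits, the level of Itgb1 did not pass the test in any comparison. Its libraries had 341, 300.2 and 266 CPM at 0 h, 274, 294 and 298 CPM at 24 h and 310.1, 304 and 327 CPM at 48 h. The log2 fold change was −0.054 at 24 h (95% interval −0.34 to 0.23), 0.053 at 48 h (−0.23 to 0.33) and 0.11 from 24 to 48 h (−0.031 to 0.25), and the lower end of each interval lay above the values of Itga6 and Itga3 in the same comparison. The 24 h and 48 h libraries did not overlap. The sign of the first value turned with library size alone as the scaling, and that of the second turned with GC and length offsets.

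Itgb3, the partner of αv in the vitronectin receptor, had 28.2, 28.8 and 30.0 CPM at 0 h, 18.9, 18.7 and 20.8 CPM at 24 h and 23.2, 24.1 and 21.7 CPM at 48 h. It was lowest at 24 h, and no libraries overlapped between times. It fell at 24 h by 0.56 ± 0.109 on the log2 scale (edgeR, adjusted p = 0.00862), which missed the threshold without 24 h replicate 1 or 2 (edgeR, adjusted p up to 0.0574). At 48 h against 0 h the value was −0.34 ± 0.106 (edgeR, adjusted p = 0.0478), a call that held without 0 h replicate 1 and was lost in the other 5 fits that left out a library (edgeR, adjusted p up to 0.199) and in DESeq2 (adjusted p = 0.0880). It was also lost with DESeq2's size factors (edgeR, adjusted p = 0.0549), library size alone (0.154), no expression filter (0.149), 10 counts required in every library (0.0518) and the replicate block (0.149), and it held with all 9 libraries in 1 fit (0.0178) and with GC and length offsets (0.0416). From 24 to 48 h the difference was 0.23 ± 0.0844 and did not pass (edgeR, adjusted p = 0.0832).

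Itgb4 encodes the chain that joins α6 in hemidesmosomes, and Itgb5 a chain that pairs with αv. Itgb4 had 8.11, 9.28 and 10.3 CPM at 0 h, 7.47, 7.38 and 6.21 CPM at 24 h and 8.86, 8.91 and 10.03 CPM at 48 h, so that the 24 h libraries lay below all others. Neither the difference at 24 h (log2 fold change −0.38 ± 0.171, edgeR, adjusted p = 0.151) nor that from 24 to 48 h (0.39 ± 0.135, edgeR, adjusted p = 0.0681) passed, and both passed with GC and length offsets (edgeR, adjusted p = 0.0425 and 0.0125). Itgb5 had 61.1, 67.3 and 83.7 CPM at 0 h, 54.6, 49.9 and 60.9 CPM at 24 h and 60.8, 54.9 and 57.0 CPM at 48 h. Its 0 h libraries lay narrowly above the others. No comparison passed (at 48 h against 0 h, log2 fold change −0.30 ± 0.139, edgeR, adjusted p = 0.151), and that at 48 h against 0 h did without 0 h replicate 1 (−0.39, edgeR, adjusted p = 0.0481).

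The 0 h libraries differed among themselves in a way that followed base composition. Replicate 3 was the lowest of the 0 h libraries for 5 members, Itga1, Itgav, Itga8, Itgb1 and Itga6, whose longest transcripts had a GC content of 42.8% to 48.9%. It was the highest for the other 5 members, whose GC content was 52.1% to 60.0%. The coefficient of variation of the members ran from 3.06% to 51.7% at 0 h and from 3.86% to 23.6% at 48 h. With offsets for GC content and length, Itga6 and Itga3 had log2 fold changes of −1.59 and −1.26 at 48 h.

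**Figure D2:**
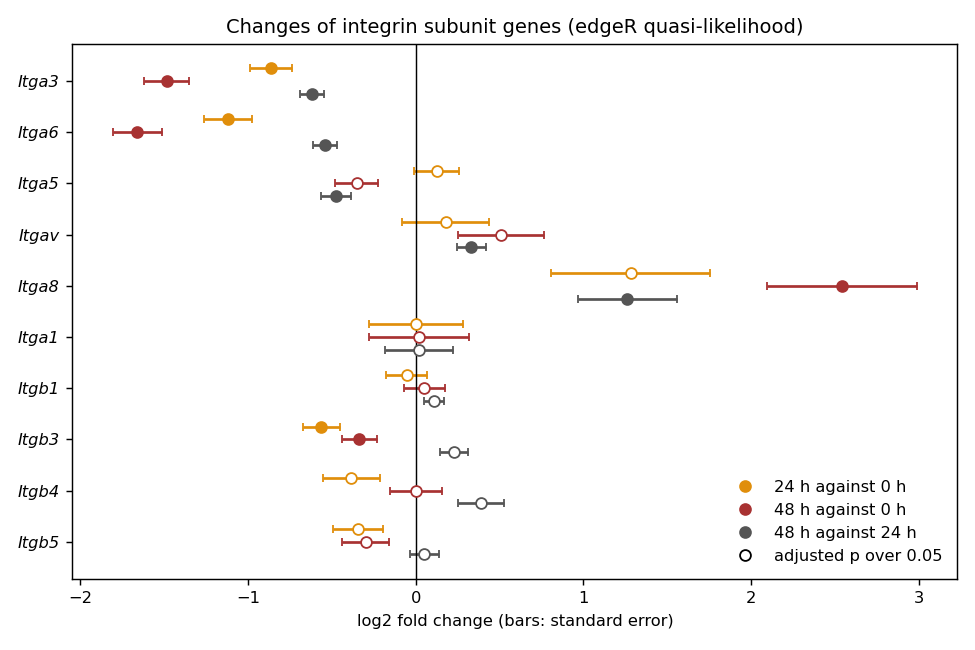
Log2 fold change (x axis, with its standard error) of the 10 integrin subunit genes for the 3 comparisons, filled where the adjusted p of edgeR was up to 0.05. Itga3 and Itga6 lay to the left of 0 in all 3 comparisons, Itga8 to the right, and Itgb1 within 0.11 of 0.

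At 24 h against 0 h, 3 of the 10 members were lower (Itga3, Itga6 and Itgb3) and 0 higher, beside 25.5% of all genes tested called in either direction (14.2% lower and 11.4% higher). At an unadjusted p under 0.05 in edgeR, Itga8 alone was higher, and DESeq2 called 0 higher. At 48 h against 0 h, 3 were lower and 1 higher, beside 31.6% of all genes (18.5% lower and 13% higher). From 24 to 48 h, 3 were lower (Itga3, Itga5 and Itga6) and 2 higher (Itga8 and Itgav), beside 21.3% of all genes (12.7% lower and 8.61% higher). The share of members at 24 h is close to that of all genes, and no test of the shares was made. The median log2 fold change of the members was −0.20, −0.15 and 0.08 in the 3 comparisons, beside 0.0052, 0.017 and −0.0045 over all genes. The libraries of the groups did not overlap for 6, 7 and 8 members, beside 43.4%, 48.3% and 39.6% of all genes.

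The makeup of the alpha subunits was then followed within each library. The summed FPKM of the 6 alpha members was 56.0 ± 1.33 at 0 h, 36.0 ± 1.69 at 24 h and 27.3 ± 0.476 at 48 h. The 4 beta members summed to 100.2 ± 5.88, 90.6 ± 3.98 and 98.3 ± 3.03 FPKM. The ratio of the alpha to the beta sum was 0.559 ± 0.0247, 0.398 ± 0.0176 and 0.278 ± 0.00534. Itga3 and Itga6 accounted for 75.5% to 77.3% of the alpha sum at 0 h, 58.2% to 61.7% at 24 h and 51.8% to 54.9% at 48 h. The RGD-binding chains accounted for 22.3% to 24.1%, 37.7% to 41.1% and 44.4% to 47.3%. Their summed level was 13.1 ± 0.816, 14.3 ± 1.31 and 12.6 ± 0.668 FPKM, while that of the laminin-binding chains was 42.7 ± 0.540, 21.4 ± 0.417 and 14.4 ± 0.238 FPKM. With 3 libraries against 3, groups without overlap give an exact permutation p of 0.1 (two-sided), the smallest this design allows. With the longest transcript as gene length, the mean share of Itga3 and Itga6 was 80.8%, 65.3% and 58.1%.

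**Figure D3:**
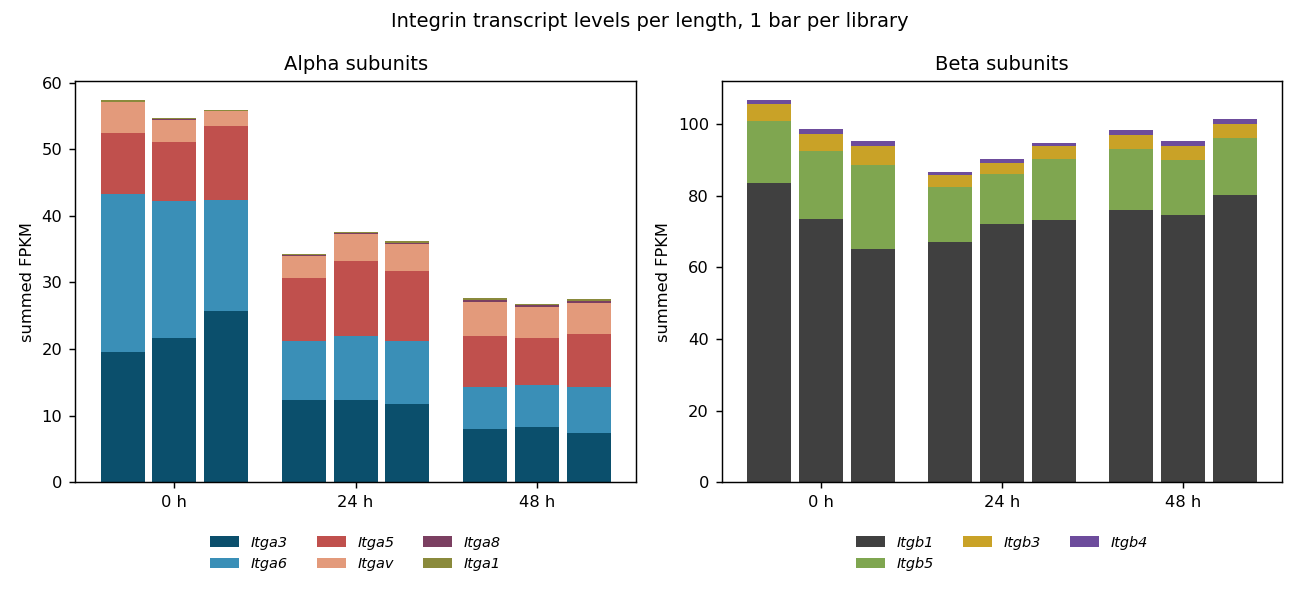
Summed FPKM of the 6 alpha (left) and 4 beta (right) integrin subunit genes, 1 stacked bar per library, grouped by time. The alpha bars shrank from 56.0 FPKM on average at 0 h to 27.3 at 48 h with the largest loss in the blue segments of Itga3 and Itga6, while the beta bars averaged 100.2 and 98.3 FPKM.

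Ratios of known partner chains do not depend on the scaling of a library, and their change over time does not depend on the gene length used. The ratio of Itga6 to Itgb1 in FPKM had a geometric mean of 0.274 at 0 h, 0.131 at 24 h and 0.0837 at 48 h, without overlap at any step (log2 difference −1.71 from 0 to 48 h, exact permutation p = 0.1). That of Itga6 to Itgb4, the hemidesmosomal pair, was 15.4, 9.31 and 4.88, again without overlap. The 0 h libraries (20.5, 15.6 and 11.4) lay only narrowly above those of 24 h (8.26, 9.05 and 10.8) for this pair. Itga6 and Itgb4 also stand on opposite sides of the split by GC content described above. The ratio of Itgav to Itgb3 was 0.965, 0.685 and 0.421 in the 3 libraries at 0 h, 1.05, 1.25 and 1.14 at 24 h and 1.29, 1.13 and 1.28 at 48 h. That of Itgav to Itgb5 was 0.268, 0.177 and 0.0907 at 0 h, 0.219, 0.283 and 0.234 at 24 h and 0.296, 0.299 and 0.293 at 48 h. The 0 h libraries were spread widely for both pairs, replicate 1 lay nearest to the later groups, and Itgav and the 2 beta genes stand on opposite sides of the split by GC content described above. The 48 h libraries did not overlap with those of 0 h for either pair (exact permutation p = 0.1), while the 24 h libraries overlapped with those of 0 h for Itgav to Itgb5 (exact permutation p = 0.3) and with those of 48 h for Itgav to Itgb3 (exact permutation p = 0.3). Itgb4 to Itgb1 was 0.0178 at 0 h and 0.0172 at 48 h, with overlap (exact permutation p = 0.7).

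The genes whose course was most like that of Itga6, among 10363 genes with a mean of at least 10 CPM over the 9 libraries, were Socs5, Tarsl2 and Phf2. Their centred log2 CPM differed from that of Itga6 by a root mean square of 0.111, 0.119 and 0.134, beside a root mean square of 0.698 for the course of Itga6 itself. Socs5 had mean levels of 108, 49.9 and 32.3 CPM at 0, 24 and 48 h. For Itgb1, the closest were Txndc16, Inip and Xrn2, with differences of 0.0343, 0.0374 and 0.0396. The root mean square for the course of Itgb1 itself, which was not called in any comparison, was only 0.106.

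Of the other 17 integrin subunit genes, 12 passed the expression filter at 24 h against 0 h and 13 at 48 h against 0 h. At 24 h, 2 were higher and 3 lower, and at 48 h, 2 were higher and 4 lower. These are 41.7% and 46.2% of those tested, beside 25.5% and 31.6% of all genes, and no test of the shares was made. The median log2 fold change was −0.28 and −0.36. Itgb2, the beta chain of leukocyte integrins, fell from 7.24, 8.69 and 9.62 CPM at 0 h to 0.590, 0.374 and 0.391 CPM by 24 h, and its 48 h libraries had 0.105, 0.348 and 0.304 CPM. The drop was steep, with a log2 fold change of −4.20 ± 0.27 at 24 h and −5.02 ± 0.37 at 48 h (edgeR, adjusted p = 6.66e-05 and 8.72e-05). The summed macrophage markers given above were lower beside it. Of 3 tested, 2 were called lower and 1 higher (Csf1r) at 24 h, and 2 lower and 0 higher at 48 h. Mrc1 averaged 2.98, 0.0993 and 0.0820 CPM at 0, 24 and 48 h, and 4 defining markers were at 3 counts or fewer in every library. The part of macrophages in the fall of Itgb2 was not tested. Itga9, whose product pairs with β1, had log2 fold changes of −0.65 ± 0.13 and −1.51 ± 0.16 against 0 h (edgeR, adjusted p = 0.00923 and 0.000442), from 28.1 to 35.8 CPM at 0 h down to 9.30 to 12.3 CPM at 48 h. Itgb7, a beta chain of lymphocyte integrins, had log2 fold changes of −1.03 and −1.50 (edgeR, adjusted p = 0.00442 and 0.000775). The genes Itga2, Itga2b, Itga4, Itga10, Itgae and Itgal were tested and not called in any comparison. Itga7, a further laminin-binding chain, had 19.2 to 29.8 CPM at 0 h, 23.1 to 30.1 CPM at 24 h and 14.2 to 17.5 CPM at 48 h. It fell from 0 to 48 h (log2 fold change −0.67 ± 0.19, edgeR, adjusted p = 0.0338) and from 24 to 48 h (log2 fold change −0.67 ± 0.13, edgeR, adjusted p = 0.00612).

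Itga11 and Itgb8 were the 2 other integrin genes that rose. Itga11, a collagen-binding chain known from fibroblasts, had 1.68, 1.34 and 1.89 CPM at 0 h, 5.60, 6.21 and 5.03 CPM at 24 h and 9.01, 7.48 and 7.60 CPM at 48 h (log2 fold change 1.78 ± 0.23 and 2.29 ± 0.22, edgeR, adjusted p = 0.00142 and 0.000288). Itgb8, which pairs with αv and binds latent TGF-β, had 3, 3 and 1 counts at 0 h, 16, 13 and 13 counts at 24 h and 29, 24 and 23 counts at 48 h. Against a floor of 3 counts per library, it was higher by at least 4.36-fold in the 24 h group and at least 7.68-fold in the 48 h group. Both were called, and their later libraries did not overlap with those of 0 h. Their rise also ran beside that of the fibroblast and myoid markers.

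The genes around the integrins were described by lists of ligands, regulators of integrin activation, plaque proteins and membrane partners. Together with the other subunits, these are 105 genes in 7 lists. At 24 h and 48 h against 0 h, the median log2 fold change was 0.11 and −0.10 for laminin chains, 2.01 and 2.27 for other matrix ligands, 0.0028 and 0.11 for integrin activation, 0.13 and 0.11 for the adhesion plaque and its signalling, −0.65 and −0.90 for the hemidesmosome, and −0.086 and −0.42 for lateral membrane partners. Of the 11 laminin chains, 10 were tested at 24 h, with 3 higher and 3 lower, and 9 at 48 h, with 2 higher and 3 lower. The shares called were 60% and 55.6%, beside 25.5% and 31.6% of all genes. Lama5, whose product is a main ligand of α3β1 and α6β1, had 176, 198 and 207 CPM at 0 h and 136, 144 and 118 CPM at 48 h, and Lama4 had 13.8, 12.2 and 13.2 CPM at 0 h and 41.0, 36.9 and 39.9 CPM at 48 h. Lama5 fell (log2 fold change −0.55 ± 0.12, edgeR, adjusted p = 0.0118) and Lama4 rose (1.59 ± 0.11, edgeR, adjusted p = 7.95e-05). Lamb1, the laminin chain with the highest mean level (18.4 FPKM), fell against 0 h in both later groups (log2 fold change −0.54 ± 0.09 and −0.46 ± 0.09, edgeR, adjusted p = 0.00538 and 0.00883).

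Other matrix ligands had the largest share of calls among the 7 lists in each comparison. Of 18 tested at 24 h, 12 were higher and 3 lower, and of 19 tested at 48 h, 14 were higher and 3 lower. These are 83.3% and 89.5%, beside 25.5% and 31.6% of all genes. Col1a1, a chain of type I collagen, had 162, 128 and 181 CPM at 0 h, 1089, 1234 and 1014 CPM at 24 h and 1493, 1415 and 1303 CPM at 48 h. Postn, a matrix protein that binds αv integrins, had 14.2, 6.01 and 5.13 CPM at 0 h and 140.2, 90.7 and 150.3 CPM at 48 h. Both rose, with log2 fold changes of 3.16 ± 0.16 and 3.91 ± 0.43 at 48 h (edgeR, adjusted p = 1.99e-05 and 0.000586), as did Thbs1 (3.14 ± 0.28, edgeR, adjusted p = 0.000225) and Col1a2 (3.57 ± 0.17, edgeR, adjusted p = 1.71e-05). Col1a1, Col1a2 and Postn are also among the 12 fibroblast markers, so that the 2 lists are not independent, and the part of fibroblasts in these rises was not tested. Fn1, the ligand of α5β1, did not pass at 24 h (log2 fold change 0.41, edgeR, adjusted p = 0.0806) and rose at 48 h, from 497, 447 and 458 CPM to 891, 908 and 860.2 CPM (0.92 ± 0.10, edgeR, adjusted p = 0.000535). Npnt, the ligand of α8β1, had 6.86, 5.76 and 6.78 CPM at 0 h, 14.7, 15.7 and 14.9 CPM at 24 h and 14.8, 14.3 and 14.7 CPM at 48 h, a rise at 24 h (log2 fold change 1.23 ± 0.15, edgeR, adjusted p = 0.000953).

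The ligand genes called lower against 0 h were Nid1, Nid2 and Tgfb1. Nid1, which links laminin to type IV collagen in basement membranes, had 357, 378 and 313 CPM at 0 h, 69.2, 75.4 and 73.6 CPM at 24 h and 72.7, 64.8 and 74.6 CPM at 48 h. Nid2, its relative, had 685, 755 and 767 CPM at 0 h and 159, 169 and 149 CPM at 48 h. Their log2 fold changes at 48 h were −2.31 ± 0.12 and −2.21 ± 0.11 (edgeR, adjusted p = 1.99e-05 and 1.72e-05). Tgfb1, whose latent form carries an RGD motif, fell by 2.81 ± 0.18 on the log2 scale at 48 h (edgeR, adjusted p = 5.36e-05).

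**Figure D4:**
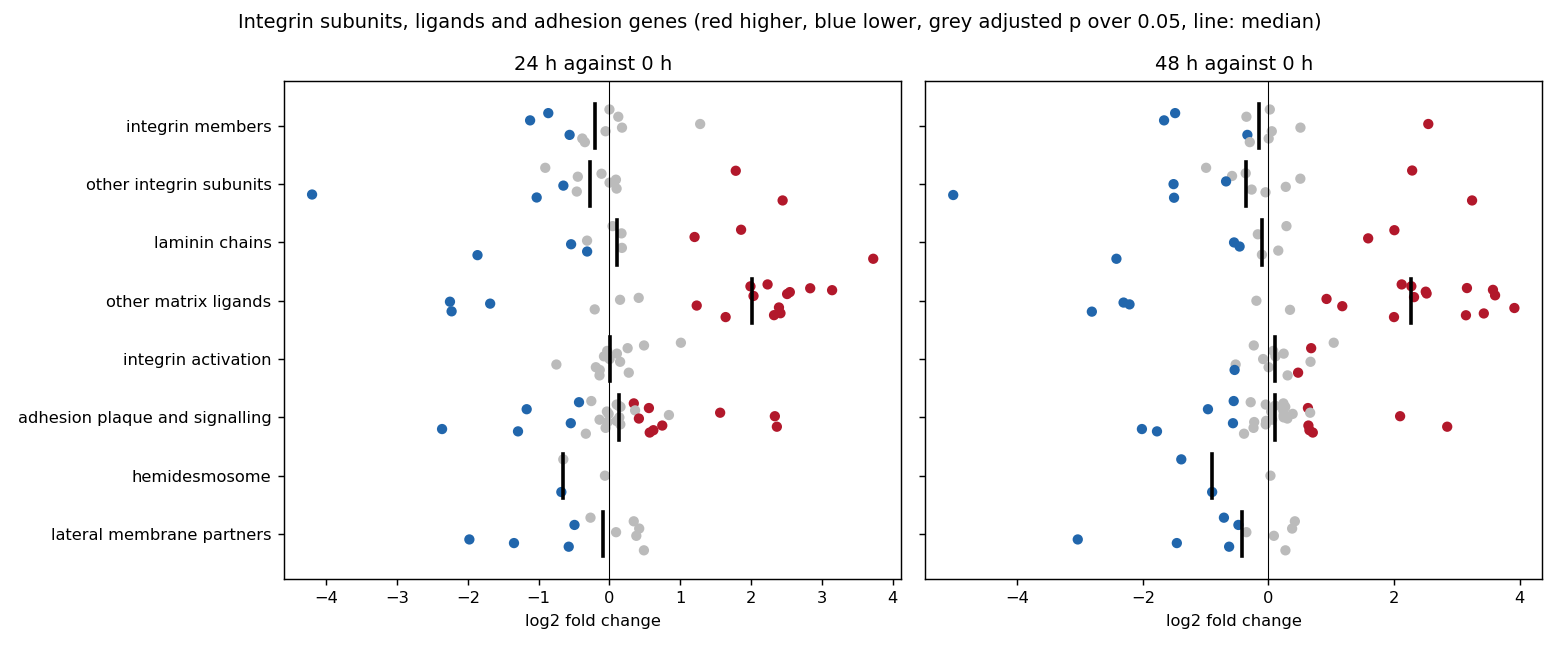
Log2 fold change (x axis) at 24 h (left) and 48 h (right) against 0 h for the tested genes of 8 lists, 1 point per gene, coloured red where called higher, blue where called lower and grey where the adjusted p of edgeR was over 0.05, with the list median as a black line. Other matrix ligands lay mostly to the right of 0, with medians of 2.01 and 2.27, and no gene of the lateral membrane partners was called higher.

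Genes that act on the cytoplasmic side were called in both directions. Of 13 tested genes that regulate integrin activation, edgeR called 0 at 24 h (3 had an unadjusted p under 0.05, and DESeq2 called 1). At 48 h, 1 fell, Sharpin (log2 fold change −0.54), and 2 rose. The 2 were Tln1, encoding talin, which switches integrins to their active shape (log2 fold change 0.47 ± 0.11, edgeR, adjusted p = 0.0153), and Fermt2, encoding kindlin-2 (0.68 ± 0.10, edgeR, adjusted p = 0.00226). Of 29 genes of the adhesion plaque and its signalling, 9 were higher and 5 lower at 24 h, and 6 were higher and 5 lower at 48 h. The shares called at 24 and 48 h were 0% and 23.1% for activation and 48.3% and 37.9% for the plaque. Over all genes they were 25.5% and 31.6%, so that the plaque share at 48 h is near that of all genes. Nedd9, a docking protein of focal adhesions, rose at 24 h (log2 fold change 2.34 ± 0.21, edgeR, adjusted p = 0.00028), while Tns2, a tensin, fell (−2.36 ± 0.22, edgeR, adjusted p = 0.000314). Vasp, an actin regulator, had 83.3, 179 and 204 CPM at 0 h and 48.0, 52.2 and 35.9 CPM at 48 h, and fell at both times (edgeR, adjusted p = 0.017 and 0.006).

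Of the 3 other hemidesmosome genes, Plec, encoding the plectin that binds the β4 chain, fell at 24 h and 48 h (log2 fold change −0.68 ± 0.12 and −0.90 ± 0.12, edgeR, adjusted p = 0.0061 and 0.00134). Col17a1 fell at 48 h (−1.39 ± 0.26, edgeR, adjusted p = 0.00632), and Dst was not called. Of the 10 lateral membrane partners, which bind integrins within the membrane, 4 were lower at 24 h, 5 at 48 h and 4 from 24 to 48 h, and edgeR and DESeq2 called 0 higher in any of these. Over all genes, edgeR called 14.2%, 18.5% and 12.7% lower and 11.4%, 13% and 8.61% higher in these comparisons. At an unadjusted p under 0.05 in edgeR, 3 were higher at 24 h, 1 at 48 h and 0 from 24 to 48 h. Cd9, a tetraspanin and surface marker of SSCs, had 185, 181 and 196 CPM at 0 h, 68.1, 71.1 and 79.6 CPM at 24 h and 63.4, 67.9 and 73.1 CPM at 48 h. Cd82 had 58.4, 83.5 and 92.8 CPM at 0 h and 9.54, 11.5 and 7.55 CPM at 48 h. Both fell, with log2 fold changes at 48 h of −1.46 ± 0.10 and −3.04 ± 0.23 (edgeR, adjusted p = 8.06e-05 and 0.000113). Cd151, the tetraspanin that binds α3β1 and α6β1 most tightly, also fell, with log2 fold changes of −0.49 ± 0.13 and −0.48 ± 0.13 at the later times (edgeR, adjusted p = 0.0329 and 0.0309).

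From 24 to 48 h, 31 of the 96 list genes tested outside the 10 members were called (32.3%), beside 45 of 95 at 24 h (47.4%) and 49 of 96 at 48 h against 0 h (51%). Calls over all genes were also fewer in that comparison, 21.3% beside 25.5% and 31.6%. The ligands gave the most, 9 higher and 3 lower of 19, led by Postn (log2 fold change 1.52 ± 0.24, edgeR, adjusted p = 0.00266). In the activation list 3 were higher and 2 lower of 13, in the plaque list 1 was higher and 2 lower of 29, and of 10 laminin chains 2 were higher (Lama4 and Lamc1) and 1 lower (Lama3).

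Parts of some members share sequence with other annotated genes. Over windows of 75 bases at 97% identity, 5.88% of the windows of Itga6 matched Gm29397, 8.53% of those of Itgb5 matched Gm38317, 5.28% of those of Itga1 matched Gm49395 and 2.85% of those of Itgb4 matched B230344G16Rik, while Itga3, Itga5, Itgav, Itgb1 and Itgb3 had 0% of windows matched. On the other strand, Gm13684 overlaps 5.90% of the exonic bases of Itgav, and B230344G16Rik overlaps 7.66% of those of Itgb4. How the counting assigned such reads is not given in the sources used here.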

How the data were processed

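RNA-seq libraries of 3 groups with 3 replicates each were analysed. The authors deposited raw counts, the number of reads per gene in each library, without normalization. The submitters' processing notes name fastp, HISAT2, featureCounts and GRCm38. Symbols, positions, lengths and exons were taken from GENCODE release M21, which held 45229 of the 46078 identifiers. The other 849 carried at most 0.121% of the counts of a library. The genes and lists, and the tests, were chosen with earlier results of these data known.

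Each comparison used its 6 libraries. After filterByExpr and TMM scaling, edgeR 4.0.16 in R 4.3.3 was run in its quasi-likelihood form (two-sided), p-values were adjusted by Benjamini-Hochberg across every gene tested, and genes up to 0.05 were called. Errors of fold changes are SE and those of levels SD over 3 libraries, and 95% intervals follow from the same fit. FPKM were computed here from TMM-normalized CPM and the union of exons. Named genes were the members, the other integrin subunits, cell type markers, and from each list those with the highest FPKM and the largest called changes with at least 10 CPM in 1 group, and the 3 genes most like Itga6 and Itgb1. Fn1, Npnt, Cd151 and Dst fall outside this rule and were named after their values were seen. Shared sequence was measured with BLAST 2.17.0. Alternatives included DESeq2 1.42.0, other scalings and filters, offsets for GC content and length, a replicate block and leaving out each library. With 16825251 to 22201892 counts per library, genes with at most 3 counts in each library of a group were taken as at the floor. The procedure was tested on simulated data.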

Additional observations from a re-analysis of the deposited data

How the results depend on the processing

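The falls of Itga3 and Itga6 were called in all 3 comparisons under every alternative run. Over the values of single genes and shares, 234 alternatives kept the direction and the side of the threshold, 13 turned the sign, 15 lost a call, 6 gained one and 3 moved a share, and of the fits that left out 1 library 151 kept it, 15 turned the sign, 12 lost a call and 2 gained one. No value that turned its sign was called. Itga1 at 24 h against 0 h had log2 fold changes of −0.0012 with DESeq2, −0.0021 with DESeq2's size factors, −0.0097 with all 9 libraries in 1 fit, −0.061 with GC and length offsets and −0.062 with the replicate block added to these. At 48 h against 0 h and 24 h, these offsets gave Itga1 −0.32 and −0.26, and with the block −0.32 and −0.27. Itgb1 had 0.059 at 24 h against 0 h with library size alone, a scaling that moved the median over all genes to 0.12 (0.13 at 48 h against 0 h) and the calls from 2002 higher and 2492 lower to 2742 and 2060 at 24 h, and from 2310 and 3292 to 3045 and 2720 at 48 h. Itgb1 at 48 h against 0 h had −0.032 with the offsets and −0.030 with the block added, and Itgb4 −0.0047 without an expression filter. The offsets raised the number of genes called at 24 h from 4494 to 6341. The count of members called at 48 h against 0 h was 2 when 10 counts were required in every library, which removed Itga8 and left Itgb3 short of the threshold (edgeR, adjusted p = 0.0518). From 24 to 48 h it was 2 with all 9 libraries in 1 fit, which pools the wider spread at 0 h and called 8 genes of the lists and 1043 of all genes, beside 3732. With the longest transcript as gene length, 17 of 30 ranks of the levels were kept, and the share of Itga3 and Itga6, an alternative chosen after seeing the data, was 80.8%, 65.3% and 58.1%.

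Leaving out each library gave 2 to 3, 3 to 6 and 3 to 5 members called in the 3 comparisons, with 6 without 0 h replicate 1 and 3 from 24 to 48 h without 24 h replicate 1 or 48 h replicate 3. The lists gave 33 to 51, 40 to 58 and 18 to 32 genes. In the last comparison they gave 19 without 24 h replicate 1 and 18 without 48 h replicate 1. The levels kept 28 to 30 ranks, and 13 to 17 of 18 comparisons of ratios showed no overlap. Leaving out a library cannot create overlap, so the count of ratios could not fall below that with all libraries. It therefore does not test their separation. Log2 fold changes that turned their sign ranged from −0.21 to 0.18, from −0.19 to 0.20 and from −0.089 to 0.17 for Itga1, from −0.036 to 0.48 for Itgav at 24 h, from −0.11 to 0.046 at 24 h and from −0.0041 to 0.15 at 48 h for Itgb1, from −0.081 to 0.12 for Itgb4 at 48 h and from −0.016 to 0.14 for Itgb5 from 24 to 48 h. Deviations of same-numbered libraries correlated at −0.280 to 0.199, beside −0.397 to 0.384 for libraries of different numbers. With 3 libraries per group, these values cannot settle whether the replicate numbers pair the libraries. The replicate block gave 3, 3 and 4 members and 37, 43 and 25 list genes, with the calls of Itgb3 at 48 h (edgeR, adjusted p = 0.149) and of Itgav from 24 to 48 h (edgeR, adjusted p = 0.0678) lost, and 3007, 4013 and 2497 of all genes. Depth limited Itga8 and Itgb8 at 0 h, where 10 counts or fewer stood in each library.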
